A study of Gallus gallus with 16 samples.

Results

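The solute carriers described here are 32 genes for membrane transporters of the SLC and SLCO series, from 19 families, measured by RNA sequencing in chicken abdominal fat. They were chosen by the study's own difference between the lines. A member is a gene whose symbol in Additional file 5, the list of genes that differed between the high-growth line (HG) and the low-growth line (LG), begins with SLC, apart from SLC25A1, and whose count reached 10 in the higher line. Of 42 such symbols in the 1998 rows of that list used here, 41 remained without SLC25A1, and 32 of these had a row among the 17854 loci of the deposited count table. All 32 reached a count of 10, so the count minimum removed none of them. The member closest to it was SLC2A6, with HG and LG counts of 8.71 and 10.4, followed by SLC7A10, with 15.9 in HG and 4.77 in LG. Because the HG/LG difference itself chose the members, their ratios below are a description and support nothing.

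Both lines come from one population of Bresse-Pile meat-type chickens, bred apart for high (HG) or low (LG) body weight at a juvenile and an adult age. Cockerels of both lines were vaccinated against Marek's disease virus at hatching, and no experimental treatment was given. The birds were cockerels of 7 wk, killed in the fed state, 4 per line. The lines were housed separately in the first weeks after hatching, when LG chicks were given crushed pellets, and together afterwards. Each bird's library was run in 2 lanes, which gave 16 samples. The line field of the sample labels says HG for every sample, which conflicts with the titles of 8 of them, so the line was taken from the titles.

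The table holds 1 estimated count per gene and line, which the authors made with Cuffdiff from all its birds, and the variance that the model gave it. Values of single birds were not analysed here, so overlap between birds cannot be shown, and every interval below comes from the deposited variance. The table's total was 4421254 for HG and 3365950 for LG. The solute carriers made up 0.179% of the HG total and 0.166% of the LG total. Counts were not divided by gene length, so a level is compared between the lines and not between genes. In whole tissue, fewer cells of a type and less RNA per cell cannot be told apart.

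Solute carriers are membrane proteins that move small molecules down a gradient, or against one by coupling to the flow of sodium, protons or another solute, without splitting ATP themselves. Numbered families share sequence, and often a class of substrate. In adipose tissue they supply fatty acids, glucose and amino acids for storage and synthesis, export lactate, set the pH of endosomes and carry metals, nucleotides and cofactors between compartments. In the results, the log2 HG/LG ratio is that of the deposited counts with a pseudocount of 1, positive where HG was higher.

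Of the 32 members, 19 had the higher count in HG and 13 in LG. The median log2 HG/LG ratio was 0.66, and the range ran from 1.87 for SLC6A4, the serotonin transporter, to -1.20 for SLCO2A1, the prostaglandin transporter. Over the 10484 loci tested, the median gene stood at 0.26 rather than 0, and a ratio relative to that gene is lower by this amount. Relative to the median gene, 18 members were higher and 14 lower. The 1 member that changed side was SLC35B1. Carriers with the strongest LG excesses are missing from this balance and range, because the rows of the list used here end before them.

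A locus was tested by its log count ratio over the standard error from the deposited variances, and passed where the p, adjusted over all loci by the Benjamini-Hochberg method, was at most 0.05 and the fold at least 1.2. As deposited, 3 members passed as higher in HG (SLC16A7, SLC1A6 and SLC43A2), where 2.07% of all loci tested did. SLC4A11 was the 1 member that passed as higher in LG, against 0.858% of loci. After the ratios were centred on the median gene, 2 members passed as higher in HG (SLC16A7 and SLC1A6), against 0.992% of loci, and 2 as higher in LG (SLC4A11 and SLCO2A1), against 1.19%. With a variance 4 times smaller, which would apply if it described 1 bird and the count were averaged over 4, 21 members passed, against 27.1% of loci. The sources used here do not say which of these the deposited variance is. The study's own test, which also required a fold of at least 1.2, listed all 32 members as differing. In the deposited counts SLC35B1, SLC25A37, SLC31A1, SLC35E2B and SLC2A6 had folds below 1.2, whichever line was higher. Why the counts and the list differ for these genes was not tested. Any other member that did not pass reached this fold and missed the adjusted p of the test used here. As these genes were selected on the same contrast, nothing is read from the counts that passed.

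**Figure D1:**
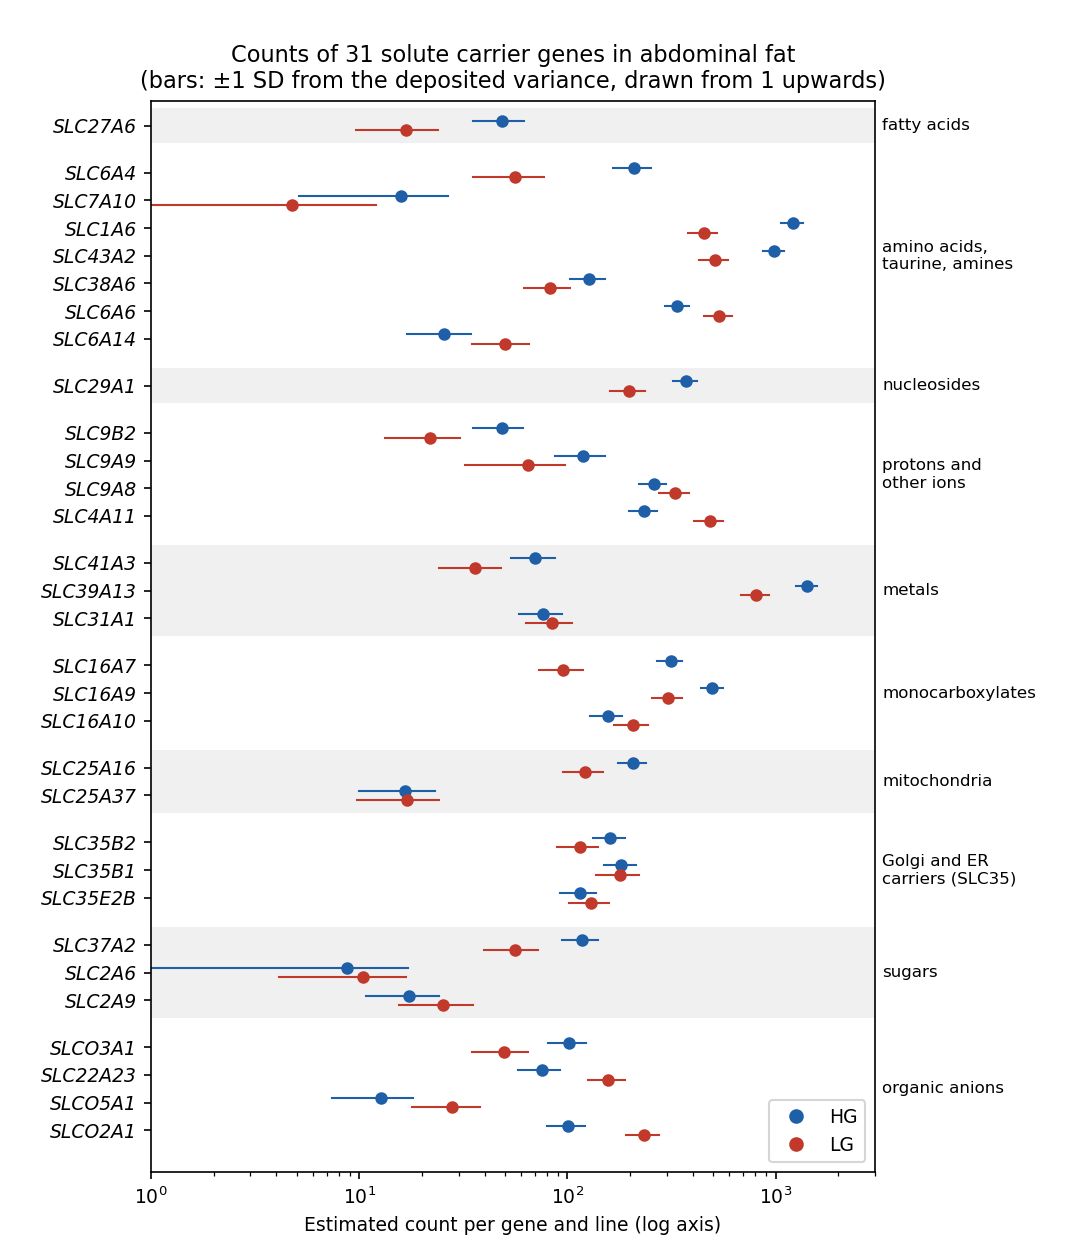
Estimated counts of 31 solute carrier genes in HG and LG abdominal fat, 1 point per gene and line on a log axis, grouped by the substrate of the family, with bars of 1 SD from the deposited variance on either side. The bars of SLC1A6, at 1208 in HG and 451 in LG, lie apart, while those of SLC7A10 and SLC2A6 are the widest and overlap.

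Carriers of amino acids and related molecules formed the largest group, with 7 members. Of these, 5 had higher counts in HG and 2 in LG, as deposited and relative to the median gene, and the median log2 ratio was 0.95. Of all loci tested, 75.3% had the higher count in HG as deposited. The paper names SLC38A5, a sodium-coupled amino acid transporter, as higher in LG, and it is not among the members. The summed counts of the group were 2912 in HG and 1692 in LG, most of them from SLC1A6 and SLC43A2. SLC1A6 encodes EAAT4, a sodium-coupled high-affinity carrier of glutamate and aspartate known from Purkinje cells in mammals. Its counts in HG and LG were 1208 and 451, which put the log2 ratio at 1.42 (95% interval 0.86 to 1.97) or a 2.67-fold higher HG count. SLC43A2 encodes LAT4, which lets branched-chain amino acids, phenylalanine and methionine pass without sodium. It had HG and LG counts of 989 and 512, which put the log2 ratio at 0.95 (95% interval 0.394 to 1.503). The excess of SLC43A2 was smaller than that of SLC1A6, and relative to the median gene its ratio of 0.69 (95% interval 0.13 to 1.24) no longer passed.

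The highest ratio of all members belonged to SLC6A4, which takes serotonin back into cells and is abundant in mammalian platelets. Counts of SLC6A4 were 208 in HG and 56.2 in LG, which put the log2 ratio at 1.87 (95% interval 0.69 to 3.05). Despite the largest ratio, SLC6A4 missed the threshold, although it passed when only loci with a count of at least 50 were tested. Its relative model SD was 20.5% in HG and 37.1% in LG, against 15.6% and 22.0% for SLC25A16, a gene with a similar HG count of 208 and a higher LG count of 122. Only 58.0% of the SLC6A4 variance in HG and 58.8% in LG is the part that the table assigns to spread between replicates. For 29 of the 32 members that part was at least 99% of the variance in HG, and for 29 it was so in LG. For SLC9A9 in HG it was 123.7%, so the part is not always a strict share of the total.

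SLC7A10 encodes Asc-1, an exchanger of small neutral amino acids such as serine and glycine, which marks white adipocytes in mice and humans. With HG and LG counts of 15.9 and 4.77 its log2 ratio was 1.55, but the 95% interval ran from -2.42 to 5.52, and with a pseudocount of 10 the ratio was 0.81. SLC38A6, of the family of sodium-coupled neutral amino acid transporters, had HG and LG counts of 127 and 82.5 (log2 ratio 0.62, 95% interval -0.258 to 1.499). Neither interval separates the lines.

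The other 2 genes of this group, both of family SLC6, had higher counts in LG. SLC6A6, the sodium- and chloride-coupled taurine transporter, had HG and LG counts of 338 and 535, which put the log2 ratio at -0.66 (95% interval -1.24 to -0.08). SLC6A14, a carrier of neutral and cationic amino acids found in mammalian lung and gut epithelia, had counts of 25.6 and 50.02 (log2 ratio -0.94, 95% interval -2.18 to 0.30). Neither passed, before or after centring. Of the same family, SLC6A4 thus lay at one end of the members and SLC6A14 near the other.

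Monocarboxylate transporters of family SLC16 were split. SLC16A7 encodes MCT2, a proton-coupled carrier of pyruvate, lactate and ketone bodies. Its counts in HG and LG were 313 and 95.7, a 3.25-fold higher HG count, and it passed both ways. SLC16A9 (MCT9), linked to carnitine levels in humans, had HG and LG counts of 497 and 305, which put the log2 ratio at 0.70 (95% interval 0.12 to 1.28). SLC16A10 (TAT1), which carries aromatic amino acids and thyroid hormone rather than lactate, had HG and LG counts of 156 and 206 (log2 ratio -0.40, 95% interval -1.11 to 0.31). The ratio of the aromatic amino acid carrier was on the LG side of the median gene, and the other 2 were on the HG side. Only SLC16A7 was separated from that gene. The intervals relative to it were -1.37 to 0.05 for SLC16A10 and -0.14 to 1.02 for SLC16A9.

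The single fatty acid carrier among the members, SLC27A6 (FATP6), promotes the uptake of long-chain fatty acids and is best known from human heart. It had HG and LG counts of 48.6 and 16.7, which put the log2 ratio at 1.48 (95% interval 0.13 to 2.84). Relative to the median gene the interval of -0.13 to 2.58 includes 0. The paper reports SLC27A1, another carrier of long-chain fatty acids, as higher in LG fat during juvenile growth. SLC27A1 is not among the members, so this group leaves it out. The single nucleoside carrier, SLC29A1 (ENT1), which equilibrates adenosine and other nucleosides across the plasma membrane, had HG and LG counts of 370.1 and 198 (log2 ratio 0.90, 95% interval 0.26 to 1.54). The SLC29A1 interval relative to the median gene, -0.0045 to 1.28, also includes 0. SLC27A6 and SLC29A1 were both higher in HG, and neither passed.

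In the organic anion group 3 of the 4 members were higher in LG, with a median log2 ratio of -1.06. Its summed counts in HG and LG were 291 and 468. The rows of the list used here end before its strongest LG excesses. The balances of this group and of the other groups therefore leave such carriers out. SLCO2A1 takes up prostaglandin E2 and related prostaglandins so that they can be broken down, and is rich in mammalian vascular endothelium. SLCO2A1 had HG and LG counts of 101 and 233, and its log2 ratio of -1.20 (95% interval -1.97 to -0.43) did not pass as deposited at a count minimum of 10, but passed at a minimum of 50 and, relative to the median gene, at -1.46. SLC22A23, an orphan of the organic ion transporter family, had HG and LG counts of 75.1 and 157 (log2 ratio -1.06, 95% interval -1.92 to -0.19). SLCO5A1, an organic anion transporter polypeptide without an established substrate, had counts of 12.8 and 27.9 (log2 ratio -1.07, 95% interval -2.55 to 0.41). These 3 and SLC4A11 were the 4 lowest ratios of all members, between -1.05 and -1.20. The exception was SLCO3A1, which carries prostaglandins and thyroid hormone, with HG and LG counts of 102 and 49.5 (log2 ratio 1.03, 95% interval 0.02 to 2.04). Its interval relative to the median gene, -0.25 to 1.78, includes 0.

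**Figure D2:**
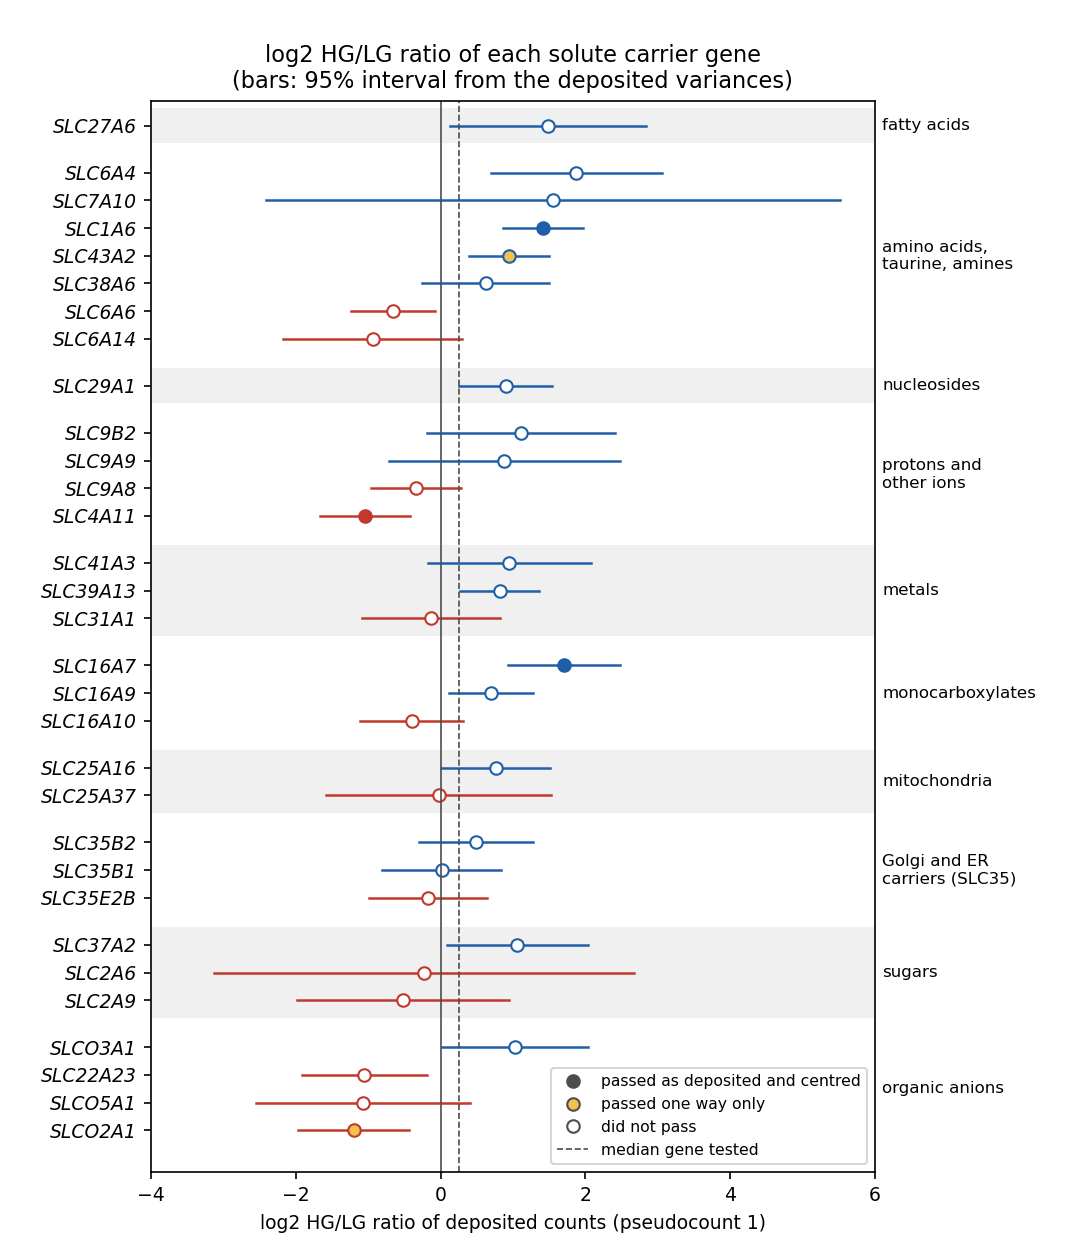
The log2 HG/LG ratio of each of 31 members with its 95% interval from the deposited variances, grouped by substrate, with a solid line at 0 and a dashed line at the median gene, 0.26. At a count minimum of 10, SLC16A7, SLC1A6 and SLC4A11 passed as deposited and centred, SLC43A2 only as deposited and SLCO2A1 only centred. In the group of organic anion families, 3 of the 4 members lie on the LG side.

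Among carriers of protons and other ions, 3 of the 5 members were higher in HG and 2 in LG. The paper names SLC4A1, an anion exchanger, and SLC4A4 as higher in LG. Neither is among the members, so this balance leaves such carriers out. SLC9A9 (NHE9) exchanges sodium or potassium for protons in endosomes and sets their pH. SLC9A9 had HG and LG counts of 119 and 64.5 (log2 ratio 0.88, 95% interval -0.72 to 2.47). SLC9B2 (NHA2), a sodium/proton antiporter of intracellular membranes, had counts of 48.3 and 21.8 (log2 ratio 1.11, 95% interval -0.18 to 2.40). Both exchangers were on the HG side, with intervals that include 0. SLC9A8 (NHE8), an exchanger of the Golgi and of epithelial surfaces, was on the other side, with HG and LG counts of 259.6 and 328. SLC4A11, a member of the bicarbonate transporter family that carries protons or ammonia and is needed in the human corneal endothelium, had HG and LG counts of 233 and 483. It passed both ways, at -1.05 on the log2 scale (95% interval -1.66 to -0.43) and, relative to the median gene, at -1.31.

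Of the metal carriers, SLC39A13 (ZIP13) releases zinc from intracellular vesicles and is required for normal connective tissue in humans and mice. Its counts in HG and LG were 1422 and 806, which put the log2 ratio at 0.82 (95% interval 0.27 to 1.36). SLC41A3, of a family of magnesium transporters, had counts of 70.1 and 35.9 (log2 ratio 0.95, 95% interval -0.18 to 2.07). SLC31A1 (CTR1), the high-affinity copper importer, had similar HG and LG counts of 76.4 and 83.9, and its log2 ratio of -0.13 (95% interval -1.08 to 0.81) became -0.39 relative to the median gene. None of the 3 passed.

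The sugar carriers were 3, and only SLC37A2 was higher in HG. SLC37A2 is a glucose-6-phosphate/phosphate exchanger of the endoplasmic reticulum that is abundant in mouse macrophages. It had HG and LG counts of 117 and 55.7 (log2 ratio 1.06, 95% interval 0.08 to 2.04). Its interval relative to the median gene, -0.18 to 1.78, includes 0. SLC2A9 (GLUT9), mainly a urate carrier, had HG and LG counts of 17.4 and 25.3 (log2 ratio -0.51, 95% interval -1.98 to 0.95). SLC2A6 (GLUT6), a lysosomal glucose transporter relative, had a log2 ratio of -0.24 with an interval from -3.14 to 2.67. Both intervals include 0, so the lines were not separated here for SLC2A9 or SLC2A6, although the study listed both as differing.

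Of the 2 mitochondrial carriers, SLC25A16 is connected with coenzyme A. It had HG and LG counts of 208 and 122, which put the log2 ratio at 0.76 (95% interval 0.0030 to 1.52). Its interval relative to the median gene, -0.26 to 1.26, includes 0. SLC25A37 (mitoferrin-1), which imports iron for heme synthesis and is strongest in red blood cell precursors, had nearly equal HG and LG counts of 16.6 and 16.9 (95% interval of the log2 ratio -1.58 to 1.53). Members of family SLC35, carriers of the Golgi and endoplasmic reticulum, had intervals that all include the median gene. SLC35B2, which brings the sulfate donor PAPS into the Golgi, had HG and LG counts of 161 and 114 (log2 ratio 0.49, 95% interval -0.31 to 1.28). SLC35B1, an ATP/ADP exchanger of the endoplasmic reticulum in humans, had HG and LG counts of 181 and 179, and the orphan SLC35E2B had 115 and 130. In the RefSeq gene order of the GRCg7b assembly, SLC35B2 and SLC29A1 are near neighbors with 1 gene, HSP90AB1, between them. Both had higher counts in HG, as did 75.3% of all loci tested, and neither passed.

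Pairs of genes within a family were set side by side, because the difference of 2 log2 ratios does not depend on how the lines were scaled to each other. The 7 families with more than 1 member gave 17 pairs of the 31 members reported singly. In 11 pairs the genes lay on opposite sides of the median gene, and in 7 of these the 95% interval of the difference excluded 0. Intervals are not adjusted for the 17 pairs, and since the study selected these genes for a difference in one direction or the other, no test is attached to them. The largest difference was that of SLC6A4 and SLC6A14, at 2.81 (95% interval 1.10 to 4.53), followed by SLC6A4 and SLC6A6 at 2.53 (95% interval 1.22 to 3.85). Such a choice favors pairs that lie far apart.

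In family SLCO, SLCO3A1 lay above SLCO2A1 by 2.23 (95% interval 0.96 to 3.50) and above SLCO5A1 by 2.10 (95% interval 0.30 to 3.89). In family SLC16, the difference between SLC16A7 and SLC16A10 was 2.10 (95% interval 1.05 to 3.15), and that between SLC16A9 and SLC16A10 was 1.10 (95% interval 0.18 to 2.02). Within family SLC9, SLC9B2 lay above SLC9A8 by 1.45 (95% interval 0.014 to 2.88). In family SLC35 no interval excluded 0, and the difference between SLC35B2 and SLC35E2B was 0.66 (95% interval -0.48 to 1.803). For SLC2A6 and SLC2A9 the interval of -2.97 to 3.53 is too wide to order them at these counts.

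**Figure D3:**
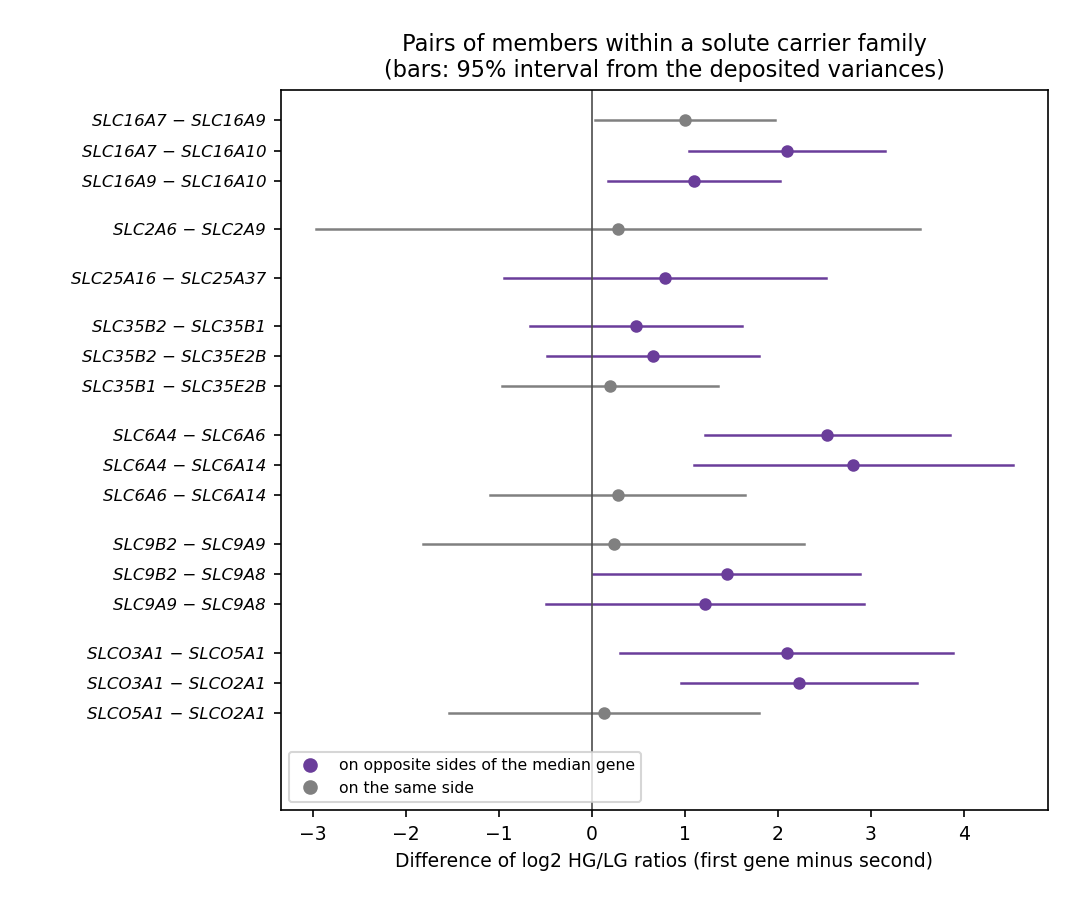
Differences of log2 HG/LG ratios for the 17 pairs of members that share a family, the higher gene minus the lower, with 95% intervals from the deposited variances. Pairs on opposite sides of the median gene are purple, and 7 of these 11 have intervals above 0, the largest being SLC6A4 against SLC6A14 at 2.81.

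The members were next set beside the 1331 other genes that the same list names and that were tested, which passed through the same selection. The median log2 ratio was 0.66 for the solute carriers and 0.68 for the other listed genes. Of the solute carriers 59.4% had the higher count in HG, against 64.4% of the other listed genes and 75.3% of all loci tested. Both listed sets lack the strongest LG excesses of the list, whereas the loci tested were not cut in this way. The share that passed as deposited was 12.5% (4 of 32) for the solute carriers and 13.2% for the other listed genes. After centring, the shares were 12.5% and 7.66%. By direction, 3 solute carriers passed as higher in HG and 1 in LG as deposited, against 169 and 7 of the other listed genes, and 2 and 2 after centring, against 81 and 21. None of these differences was tested. Median counts of the members, 123 in HG and 105 in LG, were near those of all loci tested, 126 and 105. They were below those of the other listed genes, 219 in HG and 159 in LG.

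No member lay within 0.2 of the median gene on the log2 scale, where 42.0% of all loci tested and 3.46% of the other listed genes did. The nearest members were SLC35B2, at 0.23 relative to it, and SLC35B1, at -0.24. Since the genes were selected on this difference, the gap is a property of the choice. The rows of the list used here are in falling order of the HG/LG difference and end before its strongest LG excesses, so solute carriers with a larger LG excess than SLCO2A1 were not analysed here.

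**Figure D4:**
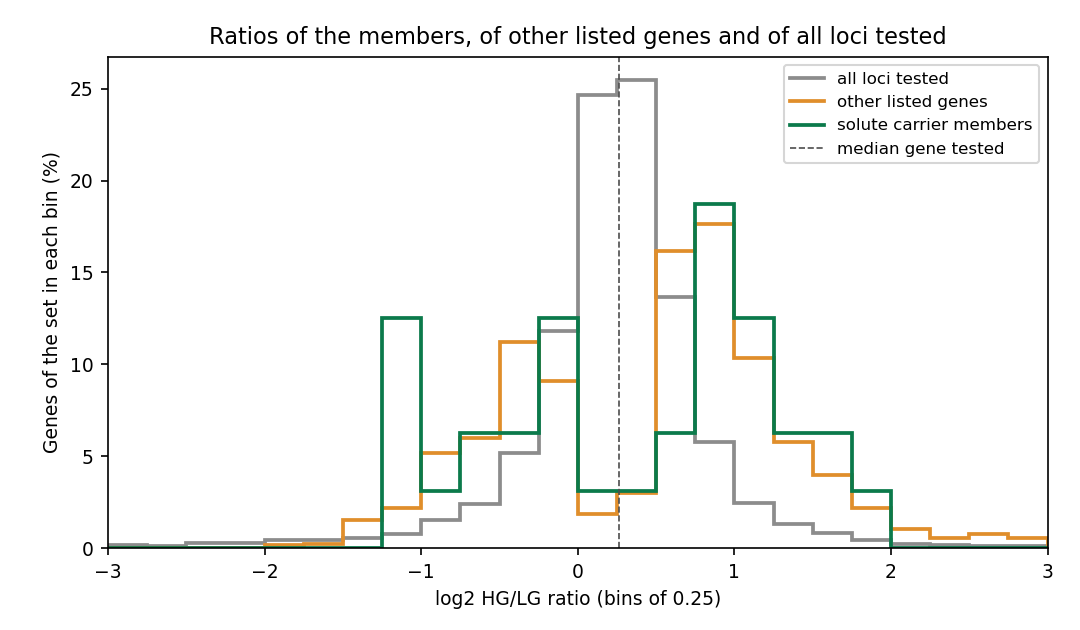
Share of genes by log2 HG/LG ratio in bins of 0.25, for the 32 solute carriers, the 1331 other listed genes tested and the 10484 loci tested, with the median gene at 0.26 as a dashed line. The members and the other listed genes both leave a gap around the median gene, 4 members lie between -1.25 and -1, and 103 loci and 8 other listed genes fall outside the axis.

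The model error of the members was close to that of the table as a whole. The relative model SD ran from 11.6% for SLC43A2 to 96.5% for SLC2A6 in HG, and from 15.4% for SLC39A13 to 151% for SLC7A10 in LG. Its median was 19.7% in HG and 23.6% in LG, against 20.2% and 24.6% over all loci tested. Over the other listed genes it was lower, at 16.1% in HG and 21.2% in LG. As deposited, the 95% interval lay above 0 for 12 members, against 8.68% of all loci tested, and below 0 for 4, against 2.72%. Among the 1331 other listed genes it did so for 577 and 58. Relative to the median gene, the interval lay above 0 for 6 members, against 3.79% of loci, and below 0 for 4, against 4.01%, and 22 intervals included 0. The selection used this contrast, so nothing is read from these counts.

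Another 9 listed solute carriers had no row in the table under their identifier, and no value is given for them. They are the creatine transporter SLC6A8, SLC37A3, the iron exporter SLC40A1, SLC38A2, SLCO4A1, SLC35G1, SLC46A2, SLC35D3 and SLC35F1. Symbols were at hand only for listed genes, so the solute carriers that the study did not list were not analysed here.

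Markers of other cell types could be read only through the same list, for 13 of 57 genes. Of the adipocyte markers, PPARG, the master regulator of fat cells, had 1774 in HG and 909.9 in LG, and SCD, which desaturates fatty acids, had 26156 and 162. CDH5, an adhesion protein of endothelial cells, had HG and LG counts of 4494 and 2611 (log2 ratio 0.78). WT1, a transcription factor of mesothelium, had 49.9 and 96.1 (log2 ratio -0.93), and SPTB, the spectrin of red blood cells, 43.0 and 80.9 (log2 ratio -0.90). SLCO2A1, known from endothelium, was on the LG side while CDH5 was on the HG side. The paper gives the selectin genes SELE and SELP as higher in LG, so CDH5 alone does not place the endothelium on a side. SLC6A14, known from epithelia, was on the same side as WT1, but WT1 marks mesothelium and the epithelial markers gave no row. Each comparison rests on 1 marker with a row, and the SLC6A14 interval includes 0. The markers with a row were listed by the same contrast, so nothing is read from their sides. The 5 thrombocyte markers, of interest beside SLC6A4, gave no row. Of 5 macrophage markers CSF1R was higher in HG and CTSS in LG. Of 8 skeletal muscle markers 4 were higher in HG, with log2 ratios from 1.12 for ACTA1 to 5.01 for ACTN2. TNNC2 was at 0 in both lines. The paper lists TNNC2 among its strongest HG excesses, so its absence is not read from this 0. Of 8 hepatocyte markers only SERPINC1 had a row, with HG and LG counts of 4.396 and 64.7. The rows of the list used here end before its strongest LG excesses, so markers with such an excess could not be read. The paper places FGA, FGB, FGG, ALB, AHSG and APOH among its strongest LG excesses. The part of other cell types in these ratios was not tested.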

How the data were processed

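Total RNA of 8 birds was made into stranded mRNA libraries and sequenced in 2 lanes. The authors deposited an estimated count per gene and line, made with Cuffdiff 2.0.2 from TopHat 1.3.3 alignments (Bowtie 0.12.7) per the submitters' processing notes, after trimming, mapping to Galgal4 and assembly with Cufflinks 1.3.0 per the study's methods. Per the file headers, the deposited variance columns give a model variance of each count and its parts. How the lines were scaled is not given in the sources used here. The authors' fold changes and p-values in the supplementary list entered no ratio or test here. The list gave the symbols, and with them the choice of the members and of the other listed genes. Its row order was checked against its listed HG/LG difference. Symbols matched RefSeq (GRCg7b) for 32 of 32 members. That table could not name other loci, so a planned count over all annotated solute carriers was dropped, and no sequences were at hand.

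The 10484 loci tested reached 10 in the larger of their HG and LG counts, exceeded 0 in both and had status OK. Each log HG/LG ratio was compared with its delta-method standard error in a two-sided normal test, with Benjamini-Hochberg adjustment over all loci. Printed ratios and intervals carry a pseudocount of 1, which the test does not, and this narrows the intervals of genes with low counts. With 1 value per line, no exact or permutation test over birds was possible, and intervals do not cover the scaling. All members count in the totals, and 31 are named, since 1 is not reported here singly. Members, gene lists and alternatives were chosen with earlier results of these data known. The test was tried on simulated counts. Python 3.11.15, pandas 2.3.3, numpy 2.4.6, scipy 1.17.1 and matplotlib 3.10.9 were used.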

Additional observations from a re-analysis of the deposited data

How the results depend on the processing

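Of 32 member ratios, all moved by less than 1 standard error when centred or given a pseudocount of 10, and 1 (SLC35B1) changed sign when centred. The 4 members that passed became 6 with a count minimum of 50 (25 members tested, SLC6A4 and SLCO2A1 added), 6 with column totals (2 higher in HG, 4 in LG, with SLC6A6, SLC22A23 and SLCO2A1 added and SLC43A2 lost), 3 with a minimum fold of 2, 2 with the Poisson variance added (SLC16A7 and SLC1A6) and 21 with the variance divided by 4. SLC16A7 and SLC1A6 passed in every setting. Of all 10484 loci, 307 passed (217 higher in HG, 90 in LG), 229 when centred (104 and 125), 236 with column totals (73 and 163), 279 with a minimum fold of 2, 226 with the Poisson variance added and 2841 with the variance divided by 4. At a count minimum of 50, 344 of 7747 loci passed. The median member ratio of 0.66 lay between 0.27 (column totals) and 0.70 (count minimum of 50). No paired analysis was possible because the birds of a line share 1 count, and for the same reason no bird could be left out.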
